A study of Mus musculus with 21 samples.

Results

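The genes described here are megalin (Lrp2), cubilin (Cubn) and 6 genes of the same route of protein uptake, Amn, Dab2, Lrpap1, Clcn5, Ocrl and Fcgrt. The members are a list of gene names that uses no measured value as a criterion, although it was drawn up with earlier results of these data known. All 8 were found among the 27179 genes of the deposited tables and among the 16377 genes that passed the filter on low counts. The study sequenced mRNA of podocyte fractions of male wildtype C57BL/6J mice, to ask how podocytes change with age and with inhibition of NLRP3, the sensor protein of an inflammasome. Cortex was digested, cells that bound antibodies to nephrin, a podocyte surface protein, were collected with magnetic beads, and each library came from 1 mouse. The groups were untreated young mice of 4 months (n = 6), middle-aged mice of 19.5 months injected with saline (n = 7), and middle-aged mice of 19.5 months injected with MCC950, a small-molecule inhibitor of NLRP3, in saline (n = 8). The young and saline groups therefore differed in age and in the injections, and these cannot be told apart.

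Megalin and cubilin are large receptors that are known for their abundance at the apical surface of the proximal tubule, where they take up filtered albumin, vitamin-binding proteins and other small proteins. Cubilin has no cytoplasmic part of its own and reaches the surface with amnionless. Ligands are carried through clathrin-coated pits into acidified endosomes, from which the receptors are recycled. Megalin has also been described in podocytes at low levels, and FcRn, the product of Fcgrt, is known in both cell types.

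The libraries held 27375870 to 36827823 counts in young mice, 45772937 to 84876399 in saline-treated mice and 35440472 to 58247271 in MCC950-treated mice, so every saline library was deeper than every young one. Counts of the 15 mitochondrial genes made up a median of 71.1%, 68.6% and 57.5% of the libraries of young, saline-treated and MCC950-treated mice. The members were well covered, with a median over the libraries between 508 counts (Clcn5) and 11619 counts (Lrp2). The labels name the cells as podocytes. The fractions also held tubule RNA, since the level of the middle one of 18 proximal tubule markers was at a median of 40.4, 30.6 and 64.3 CPM (counts scaled by normalised library size) per kb of exon over the young, saline and MCC950 libraries. The same value over 15 podocyte markers was lower, at 7.28, 3.64 and 3.74 CPM per kb. All 15 podocyte markers were lower in saline-treated than in young mice. In bulk fractions of this kind, fewer cells of a type and less RNA per cell cannot be told apart.

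Between MCC950-treated and saline-treated mice, 4 of the 8 genes were higher, namely Lrp2, Cubn, Amn and Lrpap1, and the other 4 did not pass the test. A gene was called when its adjusted p in edgeR's quasi-likelihood test was under 0.05. Of all genes tested, 16.8% were called in this comparison and 11.9% were called higher. The median log2 fold change was 0.38 over the 8 members and 0.00 over all genes. Between saline-treated and young mice, 1 of the 8 genes was called, Clcn5, which was lower, while 24.6% of all genes were called and 12.4% were called lower. The median log2 fold change of the members was 0.03 there, beside 0.02 over all genes. Between MCC950-treated and young mice, 5 of the 8 were higher, namely Lrp2, Cubn, Amn, Dab2 and Fcgrt, while 38.3% of all genes were called and 21.8% were called higher. The 3 comparisons share groups, so that they are not independent of each other.

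**Figure D1:**
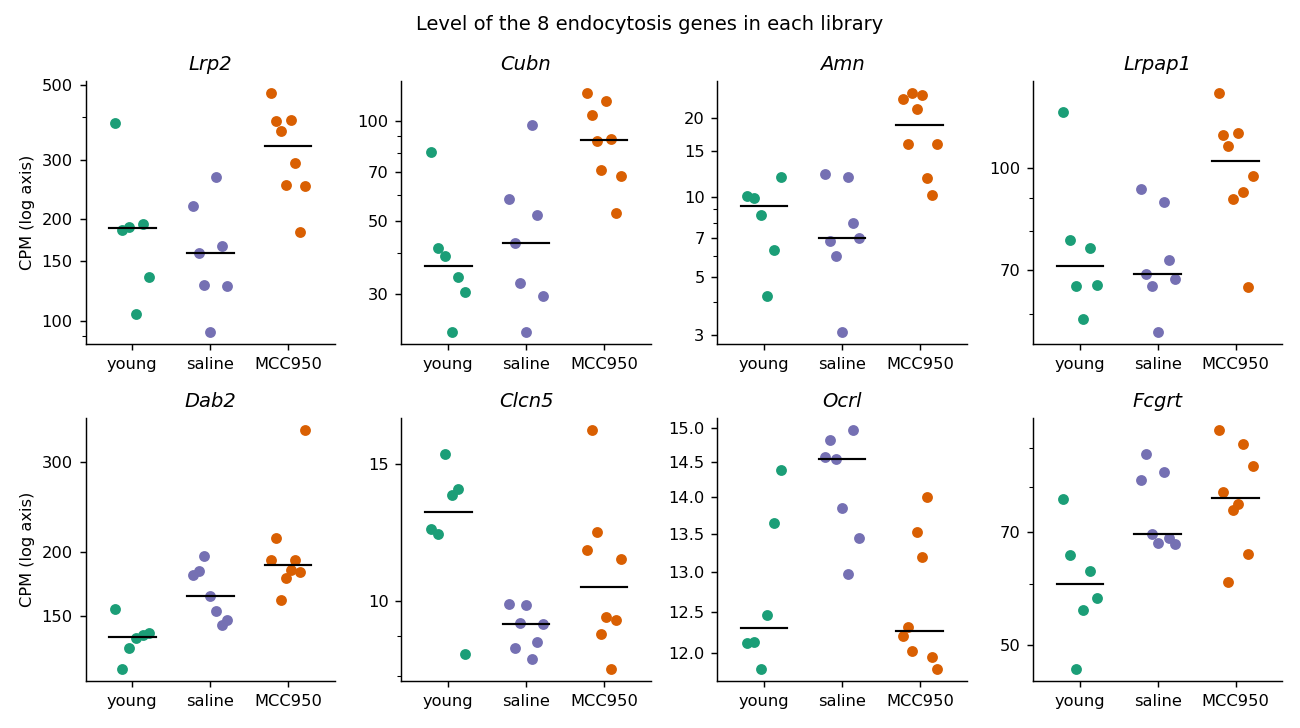
Level of each of the 8 genes in each library, in CPM on a log axis, for young (n = 6), saline-treated (n = 7) and MCC950-treated (n = 8) mice. Points are libraries and bars are group medians. Lrp2, Cubn and Amn were above the saline median in all 8 MCC950 libraries, and the groups overlapped.

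Lrp2 (chr2:69424335-69586029 in GRCm38, minus strand) encodes megalin, the receptor that binds most ligands of this route. Its level was 104.7 to 386 CPM in young mice (median 188), 92.4 to 266 CPM in saline-treated mice (median 159) and 183 to 472 CPM in MCC950-treated mice (median 328). All 8 MCC950 libraries lay above the saline median and 5 lay above the highest saline library, while the young and saline groups overlapped almost fully. The log2 fold change was 0.97 ± 0.26 (SE) between MCC950 and saline (1.96-fold, adjusted p = 0.0160) and -0.27 ± 0.27 between saline and young (adjusted p = 0.517). Against young mice the MCC950 value was 0.71 ± 0.27 (adjusted p = 0.0449). The call against saline was kept without each of the 21 libraries in turn. The call against young mice was kept in 7 of those 21 fits. It was lost without any of young replicates 2 to 6, saline replicates 1, 2, 3, 6 and 7, and MCC950 replicates 1, 2, 3 and 5, with a highest adjusted p of 0.130.

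Cubn (chr2:13276338-13491876, minus strand) encodes cubilin, the receptor for intrinsic factor-cobalamin and a partner of megalin in albumin uptake. Cubn was measured at 23.1 to 80.4 CPM in young mice (median 36.6), 23.1 to 96.98 CPM in saline-treated mice (median 42.8) and 52.8 to 121.4 CPM in MCC950-treated mice (median 87.7). Of the 8 MCC950 libraries, 3 were above the highest saline library, replicate 5, and none was below the saline median. MCC950 and saline differed by 0.88 ± 0.28 on the log2 scale (1.85-fold, adjusted p = 0.0367), and saline and young by 0.21 ± 0.30 (adjusted p = 0.664). The MCC950 call was kept in 12 of 21 fits that each left out 1 library. It was lost without saline replicate 2, 3, 4, 6 or 7 or MCC950 replicate 1, 2, 3 or 5, with adjusted p between 0.0529 and 0.0875. Between MCC950-treated and young mice Cubn was higher by 1.09 ± 0.30 (adjusted p = 0.00735), and this call was kept in all 21 fits. Exons of Cubn overlap those of Gm13270 on the other strand, and as the strand setting of the counting is not given in the sources used here, reads of the 2 genes cannot be told apart.

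Amn (chr12:111271096-111276426, plus strand) encodes amnionless, the membrane anchor of cubilin, and had the largest fold change of the 8 members between MCC950 and saline. Levels ran from 4.23 to 12.0 CPM in young mice (median 9.25), from 3.07 to 12.2 CPM in saline-treated mice (median 7.03) and from 10.2 to 24.8 CPM in MCC950-treated mice (median 18.7). Of the 8 MCC950 libraries, 6 were above the highest saline library. The log2 fold change was 1.23 ± 0.27 against saline (2.35-fold, adjusted p = 0.00602) and 1.12 ± 0.28 against young mice (adjusted p = 0.00410), and both calls were kept without each library in turn. Between saline and young it was -0.11 ± 0.29 (adjusted p = 0.811).

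The bases just before the start sites of the 3 receptor genes are shown because these genes were higher together in MCC950-treated mice. They were taken from RefSeq on GRCm38.p6, each as the 250 bases before the start site, read 5′ to 3′ along the gene's own strand. The windows are chr2:69586030-69586279 on the minus strand for Lrp2, chr2:13491877-13492126 on the minus strand for Cubn and chr12:111270846-111271095 on the plus strand for Amn. Capitals mark matches, on either strand, to the GC box GGGCGG or the E-box CACGTG, and no matches overlapped.
Lrp2: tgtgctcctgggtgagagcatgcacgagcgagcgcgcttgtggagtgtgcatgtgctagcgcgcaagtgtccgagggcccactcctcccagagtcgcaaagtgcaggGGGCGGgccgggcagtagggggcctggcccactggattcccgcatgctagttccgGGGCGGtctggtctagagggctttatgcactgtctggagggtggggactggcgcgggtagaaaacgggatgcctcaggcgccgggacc
Cubn: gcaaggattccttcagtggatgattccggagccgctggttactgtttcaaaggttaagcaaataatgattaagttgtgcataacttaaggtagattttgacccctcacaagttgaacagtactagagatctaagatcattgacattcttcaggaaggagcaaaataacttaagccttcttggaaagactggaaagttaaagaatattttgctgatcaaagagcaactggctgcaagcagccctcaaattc
Amn: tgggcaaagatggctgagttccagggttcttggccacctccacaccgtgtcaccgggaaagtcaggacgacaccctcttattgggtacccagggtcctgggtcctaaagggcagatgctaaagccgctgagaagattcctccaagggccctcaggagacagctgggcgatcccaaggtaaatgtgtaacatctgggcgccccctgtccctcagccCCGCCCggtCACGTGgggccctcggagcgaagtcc

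These windows differed in base composition. The Lrp2 window was 66.4% G or C with 18 CpG dinucleotides and 2 GC boxes, and the Amn window was 61.2% G or C with 11 CpG, 1 GC box and 1 E-box. The Cubn window was 39.6% G or C with 2 CpG and held neither motif. The start site of Cubn is RefSeq's, and the GENCODE transcripts of Cubn do not hold the bases that follow it, which they do for the other members. Over all 32851 such windows the medians were 52.4% and 6 CpG, and 32.7% of windows held the GC box and 6.02% the E-box. The letters CAAAGTCCA of an HNF4 site, found in 0.384% of all windows, were searched on both strands and were not in these 3 windows. The window of Lrpap1, the fourth gene that was higher with MCC950, held 5 GC boxes at 60.8% G or C. A match of letters is a description of the window, and no binding was measured.

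Lrpap1 (chr5:35091490-35105699, minus strand) encodes the receptor-associated protein, a chaperone of the endoplasmic reticulum that keeps megalin and related receptors from binding ligands too early. It was found at 58.8 to 121.4 CPM in young mice (median 70.9), 56.2 to 92.7 CPM in saline-treated mice (median 68.9) and 65.8 to 130 CPM in MCC950-treated mice (median 102), where 5 of 8 libraries were above the highest saline library. The log2 fold change was 0.46 ± 0.15 between MCC950 and saline (1.38-fold, adjusted p = 0.0406), smaller than that of the 3 receptor genes. This call was kept in 9 of 21 fits that each left out 1 library. It was lost without young replicate 2 or 5, saline replicate 2, 3, 4, 6 or 7, or MCC950 replicate 1, 2, 3, 5 or 8, with adjusted p up to 0.107. Saline and young differed by -0.08 ± 0.16 (adjusted p = 0.749), and MCC950 and young by 0.38 ± 0.16 (adjusted p = 0.0649).

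Dab2 (chr15:6299788-6440715, plus strand) encodes an adaptor that links the tails of megalin and other receptors to clathrin, and is also expressed by macrophages. It was tightly spread in young mice, at 118 to 155 CPM (median 137), with 144 to 197 CPM in saline-treated mice (median 164) and 161 to 348 CPM in MCC950-treated mice (median 189). All 8 MCC950 libraries were above the highest young library, and Dab2 was the only member for which the groups did not overlap in this comparison, beside 3.28% of all genes that were higher without overlap. The difference between MCC950 and young was 0.61 ± 0.14 on the log2 scale (adjusted p = 0.00169). Dab2 did not pass the test between saline and young, at 0.30 ± 0.14 (adjusted p = 0.121), or between MCC950 and saline, at 0.31 ± 0.13 (adjusted p = 0.104). These results depended on MCC950 replicate 8, the library with the highest level. Without it, the difference between saline and young stayed at 0.30, but its SE was 0.09 in place of 0.14 and Dab2 was called higher (adjusted p = 0.0166). The 3 groups share 1 estimate of the spread, so a library of 1 group can change the SE between the other 2. The value between MCC950 and saline was then 0.16 ± 0.08 (adjusted p = 0.205). Dab2 was also called between saline and young when only these 2 groups were fitted (adjusted p = 0.0268). Exons of Dab2 overlap those of Gm18888 on the other strand, with the same limit as for Cubn. The 11 macrophage and myeloid markers were all positive in sign between MCC950 and young. Of them 3 were called, beside 21.8% of all genes called higher in this comparison. Their summed level was 484 to 2441 CPM in young, 1756 to 4201 CPM in saline-treated and 1151 to 4080 CPM in MCC950-treated mice, with no marker at 0 in all libraries. With the macrophage marker score as a covariate, a fit added after seeing the data, Dab2 was higher by 0.51 ± 0.15 between MCC950 and young (adjusted p = 0.00748). In the same fit Dab2 was at 0.18 ± 0.16 between saline and young (adjusted p = 0.447), where 20.6% of all genes were called.

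Clcn5 (chrX:7153810-7319358, minus strand) encodes ClC-5, the chloride-proton exchanger of early endosomes, whose loss causes Dent disease. It was the only member called between saline-treated and young mice. Its level was 8.53 to 15.4 CPM in young mice (median 13.0), 8.41 to 9.90 CPM in saline-treated mice (median 9.34) and 8.16 to 16.6 CPM in MCC950-treated mice (median 10.4). Every saline library lay below the young median, and 1 young library, replicate 6, lay within the saline range. The log2 fold change was -0.46 ± 0.14 (adjusted p = 0.0190), and without young replicate 3 it was -0.40 with adjusted p = 0.0524. MCC950 and saline differed by 0.26 ± 0.13 (adjusted p = 0.180), with 4 of 8 MCC950 libraries above and 1 below the saline range.

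Ocrl (chrX:47912418-47966428, plus strand) encodes the inositol polyphosphate 5-phosphatase of endosomes and coated pits that is lost in Lowe syndrome. It was the least variable member over all libraries, at 11.8 to 14.4 CPM in young mice (median 12.3), 13.0 to 14.97 CPM in saline-treated mice (median 14.5) and 11.8 to 14.0 CPM in MCC950-treated mice (median 12.3). The saline group was above the young median in all 7 libraries, and 5 of 8 MCC950 libraries were below the saline range. Neither difference passed the test, at 0.15 ± 0.06 between saline and young (adjusted p = 0.0836) and -0.17 ± 0.06 between MCC950 and saline (adjusted p = 0.0542). The second value lay close to the threshold, since DESeq2 gave adjusted p = 0.0121, and adjusted p ranged from 0.0288 to 0.0950 without each library in turn.

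Fcgrt (chr7:45092993-45103822, minus strand) encodes the heavy chain of FcRn, which binds albumin and IgG in acidified endosomes and returns them to the cell surface or carries them across the cell. Fcgrt had 46.5 to 77.1 CPM in young mice (median 59.9), 67.5 to 88.2 CPM in saline-treated mice (median 69.5) and 60.3 to 94.9 CPM in MCC950-treated mice (median 77.5). All 15 libraries of middle-aged mice were above the young median. MCC950 and young differed by 0.37 ± 0.11 on the log2 scale (adjusted p = 0.0149), a call that was lost without young replicate 3 (adjusted p = 0.0697) or young replicate 4 (adjusted p = 0.0573). Saline and young differed by 0.31 ± 0.12 (adjusted p = 0.0557), and MCC950 and saline by 0.06 ± 0.11 (adjusted p = 0.756).

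Levels can be compared between the genes only per length. In young mice Fcgrt had the highest mean at 28.9 ± 4.91 CPM per kb (SD, n = 6), followed by Lrpap1 at 18.9 ± 5.47 and Dab2 at 18.5 ± 1.63, which did not differ beyond their spread. Lrp2 followed at 11.9 ± 5.87, Amn at 4.62 ± 1.53, Cubn at 2.78 ± 1.35, Ocrl at 1.35 ± 0.107 and Clcn5 at 1.11 ± 0.205. Amn and Cubn overlapped in their spread, as did Ocrl and Clcn5, although within each young library Amn was above Cubn. In saline-treated mice (n = 7) the order was the same except that Dab2, at 22.8 ± 2.77 CPM per kb, stood above Lrpap1, at 17.8 ± 3.15. Fcgrt was at 35.8 ± 4.22, Lrp2 at 9.89 ± 3.56, Amn at 4.27 ± 1.77 and Cubn at 3.21 ± 1.67. In MCC950-treated mice (n = 8) Fcgrt was again the highest, at 37.3 ± 5.65 CPM per kb, followed by Dab2 at 28.2 ± 8.01, Lrpap1 at 24.5 ± 4.71 and Lrp2 at 19.4 ± 5.71, neighbours whose spreads overlapped. Amn reached 10.0 ± 3.15 and Cubn 5.93 ± 1.60.

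**Figure D2:**
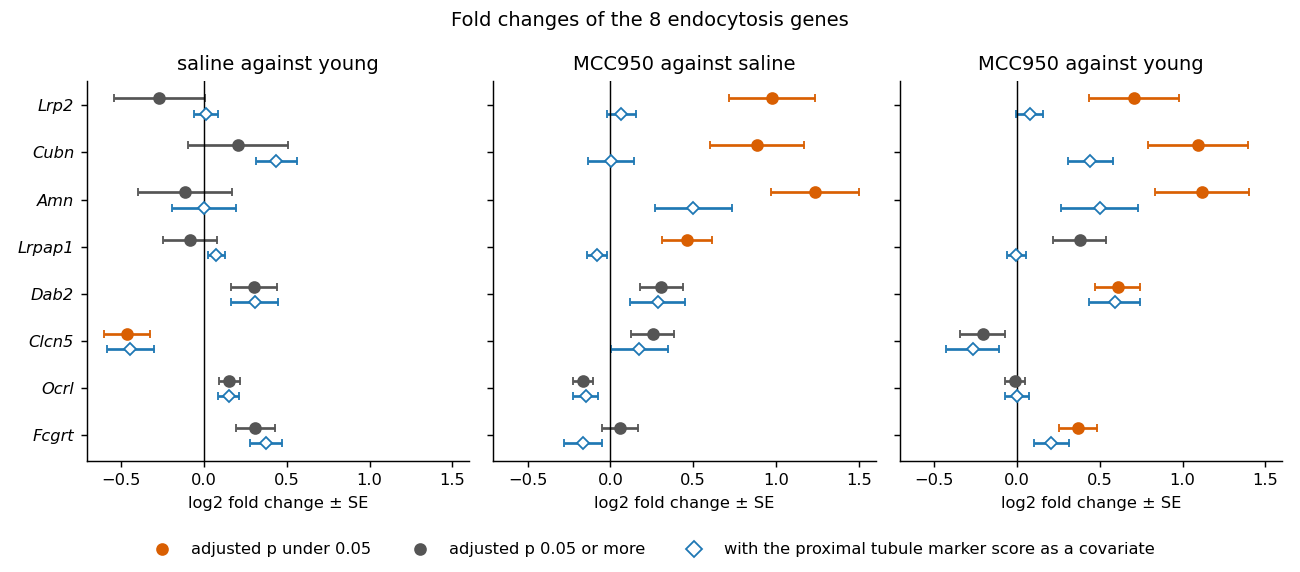
Log2 fold change ± SE of the 8 genes in the 3 comparisons. Filled circles are the values without a covariate, in orange where the adjusted p was under 0.05, and open diamonds are the values fitted with the proximal tubule score as covariate. Lrp2, Cubn and Lrpap1 were near 0 between MCC950 and saline with that covariate, and Amn was at 0.50.

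The 4 genes that were higher with MCC950 moved with the markers of the proximal tubule. Of 18 markers, none of them a member, 10 were called higher between MCC950 and saline and all 18 had a positive fold change, with a median of 0.74. Among them were Slc5a2, the glucose transporter SGLT2, at 1.46, and Gatm, an enzyme of creatine synthesis, at 1.07. Their summed level was 2587 to 6143 CPM in saline-treated mice (median 4033) and 3874 to 11110 CPM in MCC950-treated mice (median 7301), beside 2489 to 9585 CPM in young mice (median 4542), and no marker was at 0 in all libraries. Between saline and young, 1 marker was called, lower, and the median was -0.27. The share of mitochondrial counts moved as well, with 49.9% to 63.7% in MCC950 libraries and 63.0% to 79.2% in saline libraries.

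A score was formed as the mean log2 CPM of these markers in a library. When this tubule score was fitted as a covariate, none of the 8 genes was called between MCC950 and saline by edgeR, with 1 at an unadjusted p under 0.05. In the same fit 4.17% of all genes were called. The log2 difference of Lrp2 was then 0.06 ± 0.09, that of Cubn 0.0031 ± 0.14 and that of Lrpap1 -0.08 ± 0.06. Amn was at 0.50 ± 0.23 (adjusted p = 0.219). Dab2 and Ocrl hardly moved, at 0.28 ± 0.16 and -0.15 ± 0.07. With the podocyte marker score as a covariate, the number of members called between MCC950 and saline was 4, the count found without it. The share of all genes called in that fit is not reported here, so this count does not show whether the members stood out.

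The same covariate gave other calls in the comparisons with young mice. Between saline and young, Cubn was higher by 0.44 ± 0.12 (adjusted p = 0.0106) and Fcgrt by 0.37 ± 0.10 (adjusted p = 0.00657), neither of which was called without the covariate, and Clcn5 was lower by -0.44 ± 0.14 (adjusted p = 0.0224), with 30.4% of all genes called. Between MCC950 and young, Cubn at 0.44 ± 0.14 (adjusted p = 0.0149) and Dab2 at 0.59 ± 0.15 (adjusted p = 0.00539) were called, with 37.4% of all genes called. Lrp2 was at 0.01 ± 0.07 and 0.08 ± 0.08 in these 2 comparisons. The podocyte score separated young from saline libraries, at 4.79 to 5.95 against 2.82 to 4.04, and with it as a covariate no member was called by edgeR in either comparison, with 1 and 0 at an unadjusted p under 0.05. Of all genes, 0.0305% and 0.311% were called in those fits.

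**Figure D3:**
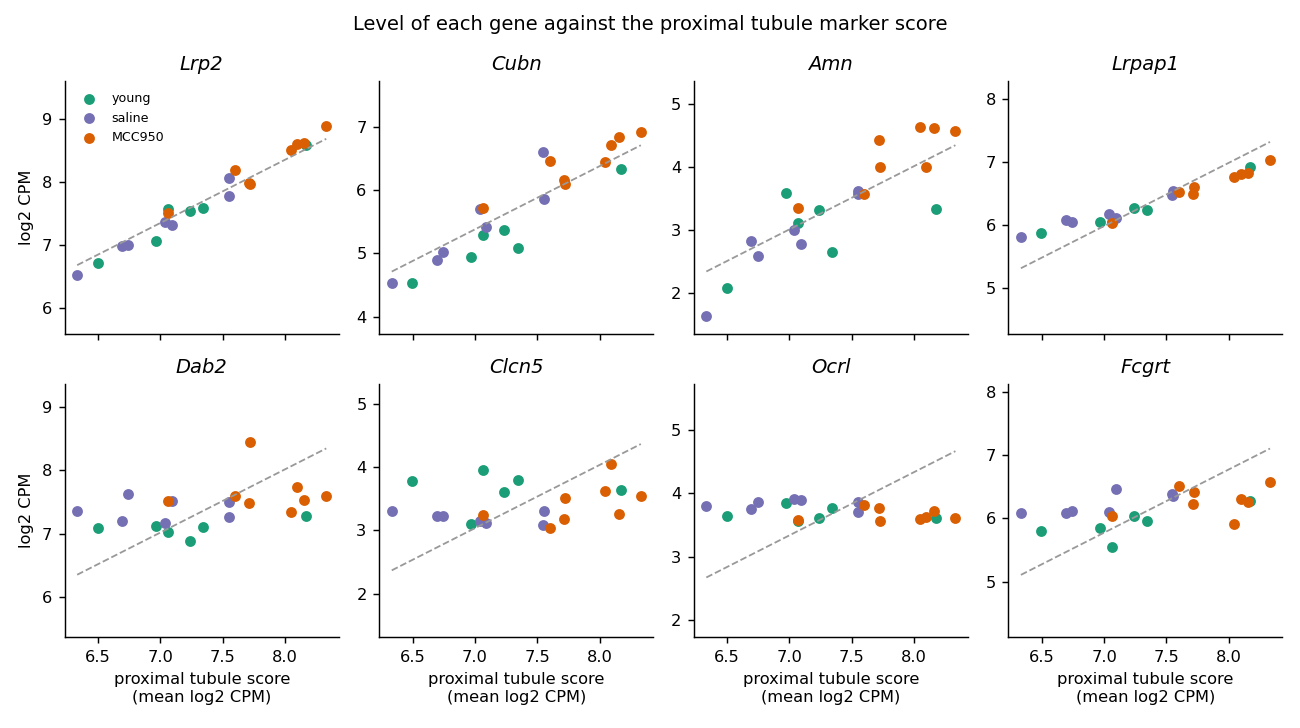
Log2 CPM of each gene (y axis, the same span of 4 log2 units in each panel) against the proximal tubule marker score (x axis, mean log2 CPM of 18 markers) in the 21 libraries, coloured by group. The dashed line has a slope of 1 and passes through the mean difference. Lrp2 follows this line closely, with an SD of 0.14 around it. Ocrl, whose own level varied little (SD 0.12), has an SD of 0.64 around it.

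Across the 21 libraries, the SD of the difference between a gene's log2 CPM and the proximal tubule score was 0.14 for Lrp2, 0.24 for Lrpap1, 0.31 for Cubn and 0.43 for Amn. It was 0.50 for Fcgrt, 0.55 for Dab2, 0.60 for Clcn5 and 0.64 for Ocrl. The SD of the gene's own log2 CPM was 0.67 for Lrp2, 0.36 for Lrpap1, 0.76 for Cubn and 0.81 for Amn. For these genes the difference from the score thus varied less than the level. For Ocrl, Clcn5, Dab2 and Fcgrt it varied more than the level, whose SD was 0.12, 0.30, 0.33 and 0.26. The less a level varies, the more the difference has to vary with the score itself. The result for these genes therefore does not show whether they followed the score with a slope below 1.

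Cubilin and megalin did not keep the same ratio in young and middle-aged mice, which differed in age and in the injections. Cubn per kb was 19.6% to 25.4% of Lrp2 per kb in young mice (median 24.0%), 26.2% to 40.8% in saline-treated mice (median 29.8%) and 26.8% to 33.6% in MCC950-treated mice (median 31.0%). Every library of middle-aged mice lay above every library of young mice, and the saline and MCC950 groups overlapped. The ratio was singled out after its values were seen, so no test is given. Among the other genes tested, 0.965% had a ratio to Lrp2 that was higher without overlap in saline than in young mice, and 0.104% in MCC950 than in young mice. Of the 18 proximal tubule markers, 0 were higher without overlap in either comparison, and of the 7 other members Cubn was the only one. The ratio is formed within a library and does not depend on normalisation. The part of depth, which differed between the young and saline groups, and of reads from Gm13270 was not tested.

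**Figure D4:**
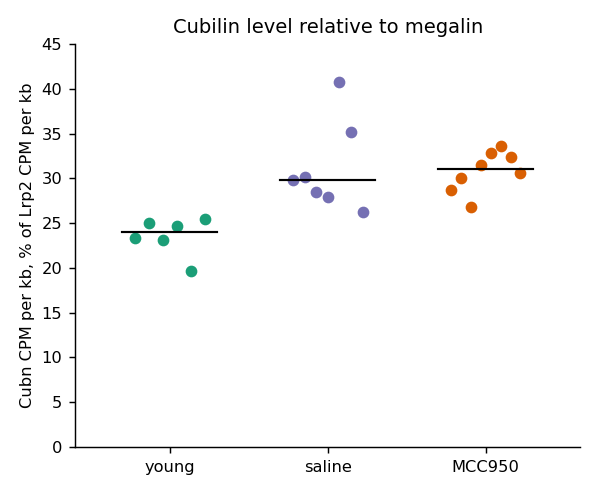
Cubn CPM per kb as a percentage of Lrp2 CPM per kb in each library, for young (n = 6), saline-treated (n = 7) and MCC950-treated (n = 8) mice. Points are libraries, bars are group medians and the y axis starts at 0. All young libraries are at or below 25.4% and all middle-aged libraries at or above 26.2%.

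Of the 28 pairs of members, Lrp2 and Cubn had the steadiest ratio over the 21 libraries, with an SD of the log2 ratio of 0.24, followed by Dab2 with Fcgrt and Ocrl with Fcgrt at 0.26 each. The SD was 0.43 for both Lrp2 with Amn and Cubn with Amn, and the least steady pair was Amn with Clcn5 at 0.87. The levels of Dab2, Fcgrt and Ocrl themselves varied little, with SDs of 0.33, 0.26 and 0.12, against 0.67 for Lrp2 and 0.76 for Cubn. A ratio of genes that vary little is steady whether or not they move together. Among 8106 genes at a mean log2 CPM of at least 3, the 5 with the steadiest ratio to Lrp2 were Gpd1, Slc6a20b, Ddah1, Slc3a1 and Folr1, with SDs of 0.14 to 0.15, against a median of 0.70. Slc3a1 is a subunit of the cystine transporter and Folr1 a folate receptor. Cubn stood at rank 98 in that order. For Cubn the ratio was steadiest with Fbp1, Abcc2 and Ugt3a1, with SDs of 0.19 to 0.21 against a median of 0.78, and Lrp2 stood at rank 15. Fbp1, an enzyme of gluconeogenesis, is also 1 of the 18 proximal tubule markers. The points share their libraries and depth, and the SDs are given as a description.

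Between MCC950 and saline, the other genes of clathrin-coated pits and endosomes, from lists chosen by function, had smaller median differences than the 8 members, whose median was 0.38. Of 22 genes of the clathrin coat and its adaptors, 7 were higher and 1 was lower between MCC950 and saline, with a median log2 fold change of 0.09. The lowest adjusted p values were those of Inpp5b, a 5-phosphatase related to Ocrl, at 0.41 ± 0.06 (adjusted p = 0.000809), and Ap2a2, a subunit of the AP-2 adaptor, at 0.47 ± 0.08 (adjusted p = 0.00103). Both were higher in all MCC950 libraries than in all saline libraries, as were 1.15% of all genes. Of 17 genes of endosome sorting and recycling, 5 were higher, with Ehd1, a recycling ATPase, at 0.57 ± 0.08 (adjusted p = 0.000443) and the retromer subunit Vps29 at 0.37 ± 0.08 (adjusted p = 0.00489). Of 21 genes of endosome acidification 5 were higher, with the proton pump subunits Atp6v1b2 at 0.47 ± 0.08 (adjusted p = 0.00150) and Atp6v0d1 at 0.35 ± 0.07 (adjusted p = 0.00269). These counts stand beside the 11.9% of all genes called higher.

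Between saline and young, 12.2% of all genes were called higher and 12.4% lower, and the counts of the clathrin and acidification lists were near these shares. Of the clathrin list 3 were higher and 3 lower, with Epn2 at -0.62 ± 0.10 (adjusted p = 0.000162) and Fcho2 at -0.46 ± 0.08 (adjusted p = 0.000603), both of them membrane-bending proteins of coated pits. Of the sorting list 3 were higher and 4 lower, with the early endosome proteins Rab5a at -0.39 ± 0.06 (adjusted p = 0.000112) and Eea1 at -0.40 ± 0.07 (adjusted p = 0.000241). Epn2, Fcho2, Rab5a and Eea1 were each lower in all saline libraries than in all young libraries, as were 4.86% of all genes. Of the acidification list 3 were higher and 3 lower, with Atp6v1g1 at 0.51 ± 0.14 (adjusted p = 0.0109) and Atp6v0a1 at 0.36 ± 0.09 (adjusted p = 0.00510).

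Among 9 other receptors of the LDL receptor family, to which megalin belongs, Lrp1 was higher in saline-treated than in young mice by 0.90 ± 0.23 (adjusted p = 0.00699), without overlap, from a mean of 50.3 to 93.8 CPM, while 4.51% of all genes were higher without overlap. Lrp1 is widely expressed, macrophages included, and 4 of the 11 macrophage and myeloid markers were called higher in this comparison, with a median of 0.90. Their part in the Lrp1 value was not tested. Lrp5 was at -0.27 ± 0.11 (adjusted p = 0.0680). Between MCC950 and saline none of the 9 was called by edgeR or DESeq2, with 2 at an unadjusted p under 0.05, Vldlr at 0.36 ± 0.17 (adjusted p = 0.146) and Lrp8 at -0.50 ± 0.24 (adjusted p = 0.148) having the lowest adjusted p. Among 5 transcription factors of the tubule, Hnf4a, a regulator of proximal tubule genes, was higher with MCC950 by 1.06 ± 0.20 (adjusted p = 0.00300), from a mean of 99.5 to 208 CPM. Maf was at 0.36 ± 0.13 (adjusted p = 0.0543), and all 5 had a positive fold change, with a median of 0.51. Between saline and young none of the 5 was called by edgeR or DESeq2, with 0 at an unadjusted p under 0.05. Hnf4g had the lowest adjusted p there, at -0.42 ± 0.33 (adjusted p = 0.374).

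**Figure D5:**
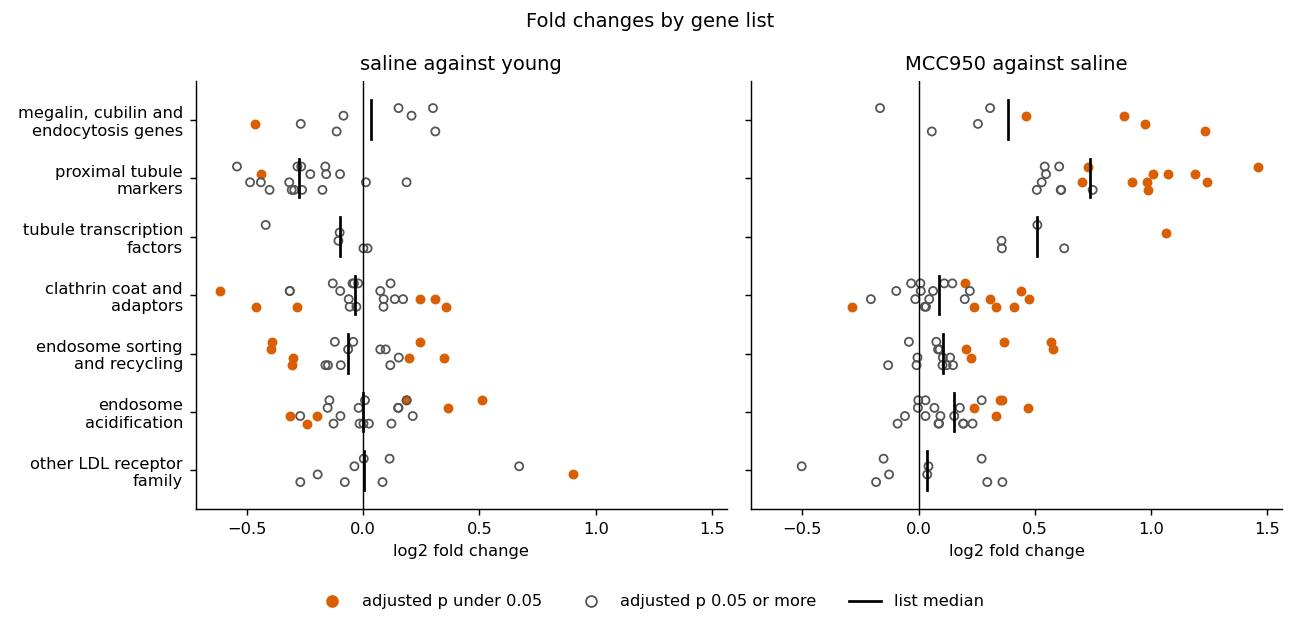
Log2 fold change of each gene in 7 lists between saline and young (left) and between MCC950 and saline (right). Filled points had an adjusted p under 0.05, open points did not, and vertical bars are list medians. With MCC950 the medians of the members (0.38), the proximal tubule markers (0.74) and the tubule transcription factors (0.51) lay above those of the clathrin (0.09), sorting (0.10), acidification (0.15) and LDL receptor family (0.04) lists.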

How the data were processed

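mRNA of podocyte fractions was sequenced by the authors from TruSeq libraries, 1 per mouse, and groups were taken from the labels. The deposited values are raw counts: the authors trimmed reads with Trim Galore, aligned them to mm10 (GRCm38) with Bowtie2, which does not split reads across introns, and obtained gene counts from featureCounts. The annotation, the strand setting and the treatment of reads with several alignments are not given in the sources used here. A deposited table of normalized counts was not used here, because it covers fewer libraries.

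Of 27179 gene numbers, 25275 were named from RefSeq, 18 from GENCODE and 1886 stayed unnamed. Genes were filtered with filterByExpr and normalised by TMM, and the 3 groups were fitted together with the quasi-likelihood test of edgeR 4.0.16 in R 4.3.3, with Benjamini-Hochberg adjustment over 16377 genes and a threshold of 0.05. DESeq2 1.42.0 was an alternative. The code was tested on simulated data. Log2 CPM used a prior count of 2. Lengths were the union of GENCODE exons.

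The members and gene lists were chosen with earlier results of these data known. Named were all members, at most 2 genes per pathway list and comparison (lowest adjusted p) and the 5 genes with the steadiest ratio to Lrp2 and to Cubn (mean log2 CPM of at least 3, immunoglobulin and unnamed genes left out); some genes that this rule names are not reported here. Slc5a2, Gatm and the ratio of Cubn to Lrp2 were chosen after their values were seen. Alternatives were other normalisation, filters, samples, depth, marker scores as covariates, the replicate number as a block, and each library left out. Errors are SE for fold changes and SD for levels. Batches are not given in the sources used here.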

Additional observations from a re-analysis of the deposited data

Results flagged for a closer look

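Each member was checked in each group for 1 library whose CPM lay far from the others, which made 24 checks. About 5% would be flagged by chance if CPM were normally distributed. That was not tested, and the checks are not independent, since the members share libraries. There were 4 flags. Young replicate 1 stood apart for 3 members: Lrp2 was at 385.5 CPM with the next young library at 193 CPM, Cubn at 80.44 CPM with the next at 41.5 CPM, and Lrpap1 at 121.4 CPM with the next at 77.6 CPM. This library also had the highest proximal tubule score of the young group, 8.17, the lowest macrophage score, 5.02, and the lowest share of mitochondrial counts, 51.5%. MCC950 replicate 8 had Dab2 at 347.7 CPM, with the next library at 214 CPM, while its other 7 members were not flagged.

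Without young replicate 1, the log2 difference of Lrp2 between saline and young was 0.03 in place of -0.27, and Fcgrt was called higher (adjusted p = 0.0186). Without MCC950 replicate 8, Dab2 was higher in MCC950-treated than in young mice by 0.46 (adjusted p = 0.000574), and its value between MCC950 and saline was 0.16 in place of 0.31 (adjusted p = 0.205). Between saline and young its value stayed at 0.30, but with a smaller SE it was called higher (adjusted p = 0.0166).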

How the results depend on the processing

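The number of members called was 1 between saline and young, 4 between MCC950 and saline and 5 between MCC950 and young. The first count stood beside 24.6% of all genes called. It was 2 with DESeq2 (28.2% of all genes), with only genes at 10 or more counts in each of the 21 libraries (26.3%) and with libraries thinned to equal depth (23%). It was 3 with only the 2 groups compared (25.9%) and with the proximal tubule covariate (30.4%). With the replicate block it was 3 (25.1%), and the other 2 counts were then 4 and 6, for which the shares are not reported here. Deviations of same-numbered libraries had correlations of -0.14 to 0.40 over the pairs, with replicate 1 at 0.35, 0.29 and 0.40 in the 3 comparisons. Differently numbered libraries were not compared. The labels state no pairing, so the numbers were not taken as pairs. The podocyte covariate gave 0 in both comparisons with young mice. The proximal tubule covariate gave 0 between MCC950 and saline and 2 between MCC950 and young. The shares of all genes called in these covariate fits are given above with the scores. Leaving out each library in turn gave 0 to 2, 2 to 5 and 3 to 6 members called, in that order, while 18.1% to 28.3%, 9.33% to 20.2% and 31.1% to 39.3% of all genes were called in these fits.

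The sign changed in 20 of 768 values of single members, none of them called in both fits. With the proximal tubule covariate these were, on the log2 scale, Lrp2 at 0.012 and Lrpap1 at 0.075 between saline and young, Lrpap1 at -0.081 and Fcgrt at -0.17 between MCC950 and saline, and Lrpap1 at -0.0058 between MCC950 and young. With the podocyte covariate they were Cubn at -1.05, Clcn5 at 0.035 and Fcgrt at -0.16 between saline and young, and Lrpap1 at -0.013 and Clcn5 at 0.16 between MCC950 and young. With the macrophage covariate, chosen after seeing the data, Lrp2 was at 0.44, Amn at 0.32 and Lrpap1 at 0.29 between saline and young, Clcn5 was no longer called there (adjusted p = 0.118), and Cubn was called higher at 0.90 (adjusted p = 0.00998) in place of 0.21. Ocrl between MCC950 and young was at 0.0037 with no filter, 0.014 with the replicate block and -0.053 to 0.00022 without each library, the highest without MCC950 replicate 8. Between saline and young, leaving out each library gave -0.42 to 0.032 for Lrp2 and -0.17 to 0.089 for Lrpap1, both highest without young replicate 1. It gave -0.062 to 0.51 for Cubn, lowest without saline replicate 5, and -0.27 to 0.015 for Amn, highest without saline replicate 4. The cause was not tested.

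Clcn5, Amn and Ocrl had the fewest counts, with medians of 508, 561 and 620, so their values in single libraries were the least precise. The score of a marker list stands for both the number of cells and their RNA, and a covariate that differs between groups removes part of any difference that goes with it.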
